A study of Homo sapiens with 6 samples.

Results

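The genes described here encode the machinery for inserting tail-anchored proteins into the endoplasmic reticulum (ER), together with the SEC61 channel of the ER membrane. There were 10 of them among 20033 protein-coding genes of the RefSeq table: SGTA, BAG6, GET4, UBL4A, GET3, GET1, CAMLG, SEC61A1, SEC61B and SEC61G. They were chosen around GET3, which had stood among the highest-ranked genes of these same peak lists, so its strength and the agreement of its replicates are given as a description and were not tested. The other 9 were added as genes of the same pathway. A peak was taken for a gene when its summit, the position of the highest pileup, lay within the gene span. Any peaks on the mitochondrial chromosome were left out of all counts, ranks and percentiles. By this rule the genes held 28 of 30111 peaks in replicate 1, 41 of 160931 in replicate 2 and 20 of 65097 in replicate 3.

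RNA immunoprecipitation followed by sequencing (RIP-seq) was done on HEK293T, an established human embryonic kidney line. The series' design text names it as RIP of SmD2, a core protein of spliceosomal particles encoded by SNRPD2. The series set out to study how SmD2 and pseudouridine, a modified RNA base, act together in splicing. The labels gave 3 samples of genotype SNRPD2OE, read here as overexpression of SNRPD2, and 3 of genotype Ctrl. Only the 3 overexpression samples entered the work, each with its own peak list, and they were not compared here with the Ctrl samples. The deposited fold, p and q were computed over the caller's background. The library that served as background is not given, so whether it was a Ctrl sample is unknown. The labels name no antibody, tag, vector, clone or time, and do not say whether replicates came from separate cultures, so the spread between replicates may be technical. SNRPD2 itself held a peak with 78, 80 and 78 reads in replicates 1, 2 and 3, and no peak used here had more. The shortest peaks of these lists were 39, 40 and 39 bp wide. Whether the reads at a summit have a ceiling set by this width was not tested. The depth at SNRPD2 is therefore not read from these numbers. The caller's background at the SNRPD2 peak was also high, at 35.0, 28.0 and 19.7 reads. The fold over that background, explained below, was 2.17, 2.79 and 3.46, and a ceiling on the reads would also limit it. Among protein-coding genes with a summit, these folds stood at percentiles 11.6, 42.5 and 89.0.

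The lists differ in kind. The median width came to 77, 40 and 12210 bp in replicates 1, 2 and 3, and 75.7% of the peaks of replicate 3 were wider than 1000 bp. From its values, the deposited fold was taken to be the caller's scaled pileup at the summit plus 1 over its background plus 1, in which a single read adds 0.599, 1 or 0.254 depending on the list. Folds are therefore ranked within a list and are not compared between lists. The caller kept peaks up to an unadjusted p of 0.01. A q-value under 0.05 is written here as a deposited −log10 q of at least 1.3. The number of reads at a summit was recovered from the deposited fold and −log10 p. The caller's background is given in the same unit, divided by what a single read adds. It is therefore not a count of reads in the background library. Only whole gene spans were used, so whether a peak is exonic or intronic is not stated.

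A tail-anchored protein carries its single membrane segment at the C-terminal end, so the ribosome has released it before the segment can be recognised. SGTA binds the segment first, and the complex of BAG6, GET4 and UBL4A hands the protein to the ATPase GET3. GET3 carries it to the ER receptor formed by GET1 and CAMLG, which insert it into the membrane. Most secreted and other membrane proteins enter instead through SEC61, a channel built of SEC61A1, SEC61B and SEC61G. SEC61B and SEC61G are themselves small tail-anchored proteins.

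Peaks were unevenly spread over the 10 genes. SGTA, GET4, GET3, GET1 and SEC61A1 held a summit in all 3 lists, BAG6, UBL4A and CAMLG in 2 lists, and SEC61B and SEC61G in none. A summit in all 3 lists was present in 38.5% of all protein-coding genes and in 31.2% of the 11684 whose span is between 2.9 and 48.2 kb long, the range of the 10 genes. The share with a summit in no list was 18.1% of all protein-coding genes and 18.9% of those in the length range. By list, 7 of the 10 genes held a summit in replicate 1, against 45.3% of protein-coding genes. In replicate 2 the number was 8, against 76.8%, and in replicate 3 it was 6, against 65.5%.

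GET3 and GET4 together held 14, 12 and 11 of the summits in the 3 lists, and SGTA held 8, 10 and 3. Peaks with at least 10 reads made up 64.3%, 48.8% and 75.0% of the peaks in these genes, against 21.6%, 5.22% and 8.38% of all peaks. Of these 18, 20 and 15 peaks, GET3 held 6, 5 and 5 and GET4 held 7, 5 and 6. The shares of all peaks include those outside genes and the wide peaks of replicate 3. Nothing is therefore read from the difference about the 10 genes as a set. Of the 89 peaks, 17 rested on a single read, 14 in replicate 2 and 3 in replicate 3, and all of these lay in SGTA or GET1. A summit with at least 10 reads in every list was present in SGTA, GET4, GET3 and SEC61A1, and in 7.45% of protein-coding genes. Only GET3 and GET4 held a peak with a −log10 q of at least 1.3 in every list, as did 0.679% of all protein-coding genes and 0.377% of those in the length range. For GET4 this rests in replicate 3 on a single peak, at position 876702, which lies in an overlapping gene as well, and without it only GET3 did. These 2 genes also took 10 of the 11 peaks past that threshold, and the remaining one lay in BAG6 in replicate 2. GET3 was chosen by such values, so nothing is read from these shares for it.

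**Figure D1:**
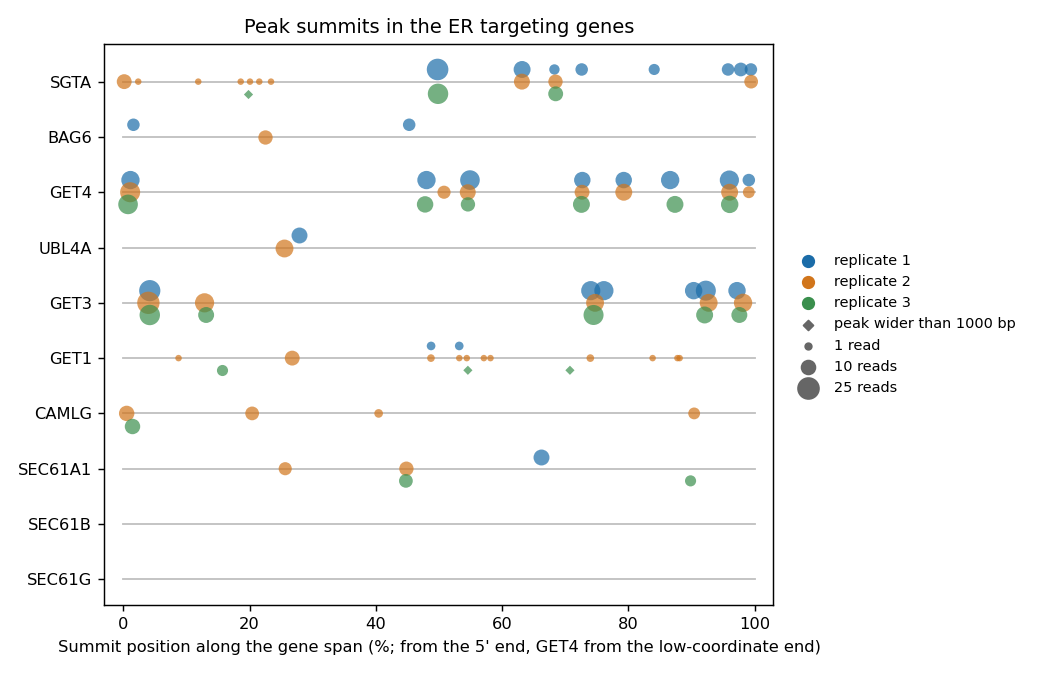
Position of every peak summit along the span of each gene, as a percentage of its length, in replicates 1, 2 and 3; the area of a symbol grows with the reads at the summit and diamonds mark peaks wider than 1000 bp. GET3 and GET4 carry columns of large symbols from all 3 lists, GET1 carries mostly peaks of 1 to 3 reads, and SEC61B and SEC61G carry none.

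GET3 lies on the plus strand at chr19:12737106-12748323 (GRCh38), a span of 11.22 kb. It held 6, 5 and 5 summits in replicates 1, 2 and 3, or 5.35, 4.46 and 4.46 per 10 kb. The median protein-coding gene held 0, 1.06 and 0.315 per 10 kb in these lists. Every GET3 peak had at least 14 reads and none was wider than 1000 bp. Joining peaks that overlapped gave 6 sites, of which 4 were present in all 3 lists, 1 in replicates 2 and 3, and 1 in replicate 1 alone.

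The strongest GET3 peak lay near the 5′ end and at the same place in each list. Its summits were at positions 12737575, 12737550 and 12737575, a spread of 25 bp. RefSeq places 2 starts of GET3 upstream of it, at 12737106 and 12737497, and the summits lay 78, 53 and 78 bases after the second. The fold was 8.08 in replicate 1, 6.51 in replicate 2 and 6.55 in replicate 3. The reads behind these values were 26, 29 and 24, with exact 95% Poisson intervals of 17.0 to 38.1, 19.4 to 41.6 and 15.4 to 35.7, which cover counting error only. The background of the caller at the same summits was 1.76, 3.61 and 0.323 reads.

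The deposited −log10 p of this peak was 13.4, 17.2 and 11.3, and its −log10 q was 6.97, 10.6 and 5.67. By −log10 p it ranked 62nd, 34th and 189th in the 3 lists. Among protein-coding genes with a summit, each represented by its strongest peak, its fold ranked 32nd of 9067, 232nd of 15376 and 92nd of 13122. The 3 peaks covered a common segment of 45 bp, chr19:12737548-12737592. It was the only segment in the 10 genes that peaks with a −log10 q of at least 1.3 covered in every list. Strongest peaks within 25 bp of each other in all 3 lists, as in GET3, were found in 99 of 7714 protein-coding genes with a summit in every list, or 1.28%. Within 100 bp they were found in 207, or 2.68%, and the median spread of the 7714 genes was 21403 bp. The limit of 25 bp is GET3's own spread, and GET3 was chosen from these lists, so nothing is read from the share.

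The start-site windows of the RefSeq table end just before this segment, and 4 genes had at least 10 bases of a peak inside such a window. Their sequences are shown because they are the parts of the peaks near the annotated starts that the table covers. The table had 14 windows for 9 of the genes, each running from 250 bases before to 50 after a start, and GET4 had no entry. Each stretch is 30 bases, 5′ to 3′ on the gene's strand, with capitals for bases inside a peak.
GET3, replicates 2 and 3, chr19:12737517-12737546, plus strand: GGTGGCCGGGTGGGGGGTTGAGGCAGAGGA
GET1, replicate 3, chr21:39387801-39387830, plus strand: ctTCCAAGCTCTAAATGGAGAGTTGTCCCT
SGTA, replicate 2, chr19:2783224-2783253, minus strand: cggggatcggtCGCCTGAGAGGTGAGTGAG
BAG6, replicate 1, chr6:31652429-31652458, minus strand: ACTATCGGGGAAACGGAAGTGGCCGTCGGT

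All 30 bases of the GET3 stretch lay in the peak of replicate 3, and the last 17 of them also in that of replicate 2. G or C made up 22 of its 30 bases, against 20 in SGTA, 18 in BAG6 and 14 in GET1. Some short motifs were searched on both strands after these stretches had been seen. TNTAA and TNTAG are the forms of the motif that PUS7, a pseudouridine synthase, is known to modify, and GTAAGT and GTGAGT are common forms of the 5′ splice site. Any position counted, whether or not 2 motifs overlapped. TNTAA was found in GET1 from base 10 of the stretch and TNTAG on its other strand, GTGAGT was found in SGTA from base 22, and no searched motif was found in the GET3 or BAG6 stretch. In whole windows, TNTAA was present in 7 of 14 against 59.8% of 35116 windows of all genes, and TNTAG in 9 against 62.8%. GTAAGT was present in 1 of 14 against 6.33%, and GTGAGT in 4 against 12.8%. These counts include hits on the other strand, which the gene's own RNA does not carry. On the gene's strand alone, TNTAA was present in 5 of 14 against 46.4%, and TNTAG in 8 against 43.7%. GTAAGT was then present in 1 against 3.4%, and GTGAGT in 2 against 7.25%. Most of each window also lies before its start, so nothing is read from these shares about the RNA.

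The other GET3 sites were weaker and lay mostly towards the 3′ end. No GET3 summit lay between 13.1% and 74.0% of the span. At 13.3% of the span a site was listed for replicate 2 with 21 reads and a fold of 3.99, and for replicate 3 with 14 reads and a fold of 3.81. It had no peak in replicate 1. At 75.3% of the span all 3 lists had a peak, with 21, 18 and 23 reads at the strongest summits and folds of 3.397, 2.961 and 4.312, but they had only 11 bp in common. The summits of this site were spread over 233 bp, and replicate 1 held 2 separate peaks there.

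The remaining shared sites of GET3 lay at 92.7% and 98.4% of the span. The first had 23, 18 and 16 reads and folds of 2.11, 2.31 and 2.53, over a background of 10.01, 7.22 and 3.94 reads, and shared 42 bp. The last had 17, 19 and 14 reads with folds of 4.51, 3.12 and 3.47 and shared 141 bp at chr19:12748005-12748145. Its −log10 q was 1.38 and 1.57 in replicates 1 and 2 and 0 in replicate 3. GET3 thus held 3 shared segments of at least 20 bp. At least 1 was present in 4 of the 10 genes, GET3, GET4, SGTA and GET1, and in 10.8% of protein-coding genes. With peaks of at most 1000 bp it was present in GET3, GET4 and SGTA, and in 5.97% of protein-coding genes. At least 3 such segments were present in GET3 and GET4, in 0.514% of protein-coding genes, and in 0.522% of those in the length range.

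**Figure D2:**
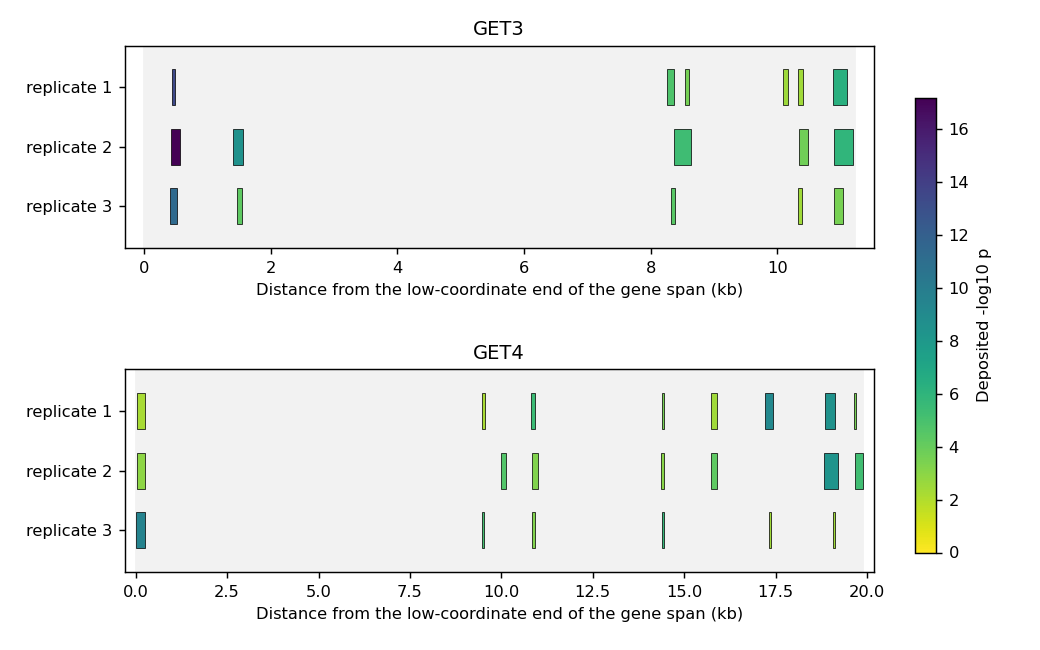
Peaks of GET3 (upper) and GET4 (lower) drawn to scale as distance in kb from the low-coordinate end of the span (shaded), 1 row per replicate, with the colour giving the deposited −log10 p. In GET3 the darkest bar of every replicate is at the left end, with −log10 p of 13.4, 17.2 and 11.3, while in GET4 the darkest bar is at a different place in each replicate.

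GET4, the scaffold between GET3 and the rest of the pretargeting complex, lies at chr7:876554-896436 and held 8, 7 and 6 summits. Positions in it are given from the low-coordinate end. All were narrower than 1000 bp and 18 of the 21 had at least 10 reads. Its peaks formed 9 sites, of which 4 were in all 3 lists, 4 in a pair of lists and 1 in replicate 2 alone. No summit lay between 1.12% and 47.8% of the span.

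Unlike in GET3, the strongest GET4 peak was at a different site in each list. In replicate 1 it was at position 893777 with 19 reads, a fold of 6.19 and a −log10 p of 9.08. In replicate 2 it was at 895650 with 16 reads, a fold of 4.58 and a −log10 p of 8.30. In replicate 3 it was at 876702 with 22 reads, a fold of 6.10 and a −log10 p of 9.53. These summits spanned 18948 bp, so the 3 values do not describe 1 site.

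At the sites that all lists shared, the replicates of GET4 ranked the positions differently. At the low-coordinate edge, chr7:876596-876812 was covered by all 3 lists with 19, 23 and 22 reads. The background there was 8.34, 11.7 and 0.307 reads, and the last was the lowest at any GET3 or GET4 summit. The fold was 2.06 in replicate 1, 1.88 in replicate 2 and 6.10 in replicate 3, and no GET4 peak of replicates 1 and 2 had a lower one. At the site centred at 95.7% of the span the summits were within 9 bp of each other, with 21, 16 and 17 reads and folds of 5.65, 4.58 and 2.66. The sites at 54.8% and 72.5% had 22, 14 and 11 reads and 15, 12 and 16 reads, with folds between 2.34 and 4.25. From 876554 to 878097 on chromosome 7 the span is also that of the long noncoding RNA LOC124905356, and the lists carry no strand, so the first site cannot be assigned to 1 of the 2.

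SGTA, the chaperone that first holds the tail-anchored protein, lies on the minus strand at chr19:2754715-2783273. It held as many summits in all as GET4, 21, but they were weaker. Its 15 sites included 1 shared by all 3 lists, 3 in a pair of lists and 11 in a single list. The shared segment, chr19:2763717-2763781, had 5, 11 and 12 reads with folds of 2.876, 2.602 and 3.738, and −log10 p of 2.13, 3.42 and 5.76. Its most deeply covered site, near the middle of the gene, had 27 reads in replicate 1 and 24 in replicate 3, but over a background of 8.34 and 7.88 reads, and no peak in replicate 2.

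In replicate 2 SGTA had 6 peaks of a single read, all within 23.4% of the span from its 5′ end. In the same stretch replicate 3 had 1 peak, 8691 bp wide, also with 1 read, and replicate 1 had none. The peak with 12 reads at the SGTA start, whose sequence is given above, had a fold of 2.82 and was listed for replicate 2 only. No SGTA peak reached a −log10 q of 1.3.

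BAG6, the scaffold and quality-control chaperone of the complex, lies on the minus strand at chr6:31639028-31652661. It held 2 summits in replicate 1 and 1 in replicate 2, at 3 different sites, and none in replicate 3. The replicate 1 peaks had 8 reads each and folds of 4.70 and 4.29. The former lay 217 bases after the first annotated start and 54 before the second, and inside the overlapping span of APOM as well. The replicate 2 peak had 11 reads, a fold of 4.28 and a −log10 q of 1.83.

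UBL4A, the ubiquitin-like subunit of the complex, is the shortest of the genes, at chrX:154483717-154486615. It had 1 peak in replicate 1 with 14 reads and a fold of 3.02, and 1 in replicate 2 with 18 reads and a fold of 1.74. They did not overlap, since the first ended at 154485870 and the second began at 154485877. The fold in replicate 2, over a background of 9.93 reads, stood at percentile 0.582 of that list.

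**Figure D3:**
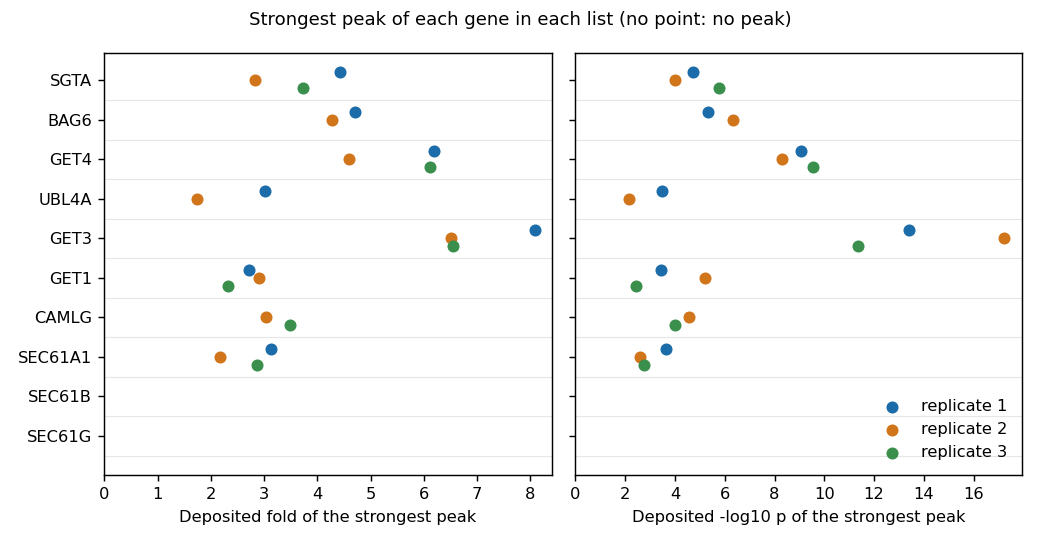
Deposited fold (left) and −log10 p (right) of the strongest peak of each gene in replicates 1, 2 and 3, with no point where a gene had no peak. GET3 lies furthest right in every replicate, with folds of 8.08, 6.51 and 6.55, followed by GET4, and the 2 SEC61 genes without a peak have empty rows.

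The receptor is encoded by GET1 and CAMLG. GET1, at chr21:39380326-39428528, is the longest gene of the set and held 2, 11 and 3 summits. Of the 11 in replicate 2, 8 rested on 1 read and 2 on 2 reads. The remaining one, chr21:39393137-39393307, was the most deeply covered GET1 peak, with 12 reads and a fold of 2.36, and no summit of the other lists lay in it. The 2 peaks of replicate 1 had 3 reads each. Replicates 1 and 2 agreed at 2 sites, with summits 10 and 4 bp apart. The first had 3 and 2 reads and folds of 2.72 and 2.90, and the second had 3 reads and 1 read and folds of 2.596 and 1.930. Replicate 3 covered both only through a peak of 8163 bp with a single read, so with peaks of at most 1000 bp GET1 had no shared segment.

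The strongest GET1 peak of replicate 3 had 6 reads and a fold of 2.31, and its summit lay 42 bases after the RefSeq start at 39387781. A further peak of replicate 3, 73085 bp wide, overlapped the GET1 span with its summit outside it and was not counted. The GET1 span lies inside the readthrough gene GET1-SH3BGR and overlaps LCA5L on the other strand, so none of its peaks can be assigned to GET1 alone.

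CAMLG, the partner of GET1, lies at chr5:134738548-134752157 and had no summit in replicate 1, 4 in replicate 2 and 1 in replicate 3. Replicates 2 and 3 shared a site at its 5′ end, where they had 13 reads each and folds of 3.04 and 3.48. The summits lay 71 and 195 bases after the annotated start. The remaining 3 peaks of replicate 2 had 10, 3 and 7 reads and were in that list alone. None of the peaks of GET1 or CAMLG reached a −log10 q of 1.3.

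Of the channel genes only SEC61A1, which encodes the pore itself, held peaks. It lies at chr3:128051641-128071683 and had 1, 2 and 2 summits. Replicates 2 and 3 shared a site at 44.8% of the span with 11 and 10 reads and folds of 2.18 and 2.87, and summits 15 bp apart. The single peak of replicate 1 had 14 reads and a fold of 3.13, lay elsewhere, and fell in the part of the span that SEC61A1 shares with RUVBL1. So did the weaker peak of replicate 3, with 6 reads. SEC61A1 thus had a summit in all 3 lists without a segment covered by all of them, and every one of its peaks had a −log10 q of 0.

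SEC61B (chr9:99222282-99230615) and SEC61G (chr7:54752253-54759211) had no summit, and no peak of any list reached into their spans. At 8.33 and 6.96 kb they are shorter than all the other genes except UBL4A. A gene without a listed peak has no value here, and its RNA may still have been recovered. The nearest peak to SEC61B was in replicate 2, 455 bp before its start, with 7 reads and a fold of 2.16, and in the span of the neighbouring gene ALG2.

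Next to SEC61G, by contrast, all 3 lists placed a strong peak just outside the gene. Its summits were 618, 676 and 640 bp before the SEC61G start, with 23, 20 and 27 reads and folds of 7.39, 7.48 and 7.05. The −log10 q was 5.24, 8.74 and 4.78, and the lists shared 202 bp, chr7:54759716-54759917. This position lies in SEC61G-DT, a long noncoding RNA gene on the opposite strand whose span begins at 54759313 and overlaps no part of SEC61G. SEC61G-DT was named after its values were seen.

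Along the genes other than GET4, the peaks of at most 1000 bp lay in all parts of the span when the lists were pooled. Of 65 such summits, 14, 9, 13, 12 and 17 fell in 5 successive parts of equal length from 5′ to 3′. By replicate the part at the 5′ end held 2 of 20, 8 of 34 and 4 of 11 summits. Over protein-coding genes in the length range it held 23.6%, 21.5% and 28.5% of the summits. The part at the 3′ end held 7 of 20, 7 of 34 and 3 of 11, beside 28.1%, 28.0% and 25.7%. The numbers are small, and sites within a gene share their source, so no test was made.

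Reads and folds ordered the peaks differently. GET3 and GET4 had 14 or more reads at all but 5 of their 37 summits, over backgrounds from 0.307 to 11.7 reads. In replicate 2 the single-read peaks of SGTA and GET1 reached a fold of 1.94 over a background of 0.0334 reads.

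**Figure D4:**
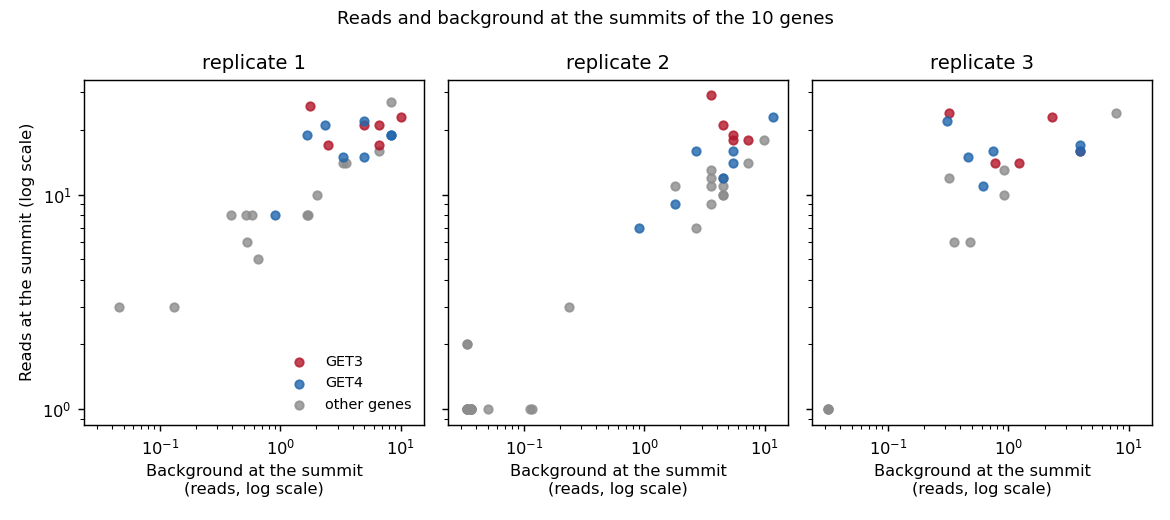
Reads recovered at each summit against the caller's background at that summit, both in reads on log axes, for the peaks in the 10 genes, by replicate. The upper points of each panel are mostly GET3 (red) and GET4 (blue), and the points at 1 read in replicates 2 and 3 are peaks of the other genes over low backgrounds.

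The genes most like GET3 were sought by the percentile of the fold of the strongest peak among protein-coding genes in each of the 3 lists. GET3 stood at 99.7, 98.5 and 99.3. The closest of 7714 genes was CHD4, a chromatin remodeler, which stood within 0.971 points in every list. SF3A3, a subunit of a U2 particle complex, stood within 1.20 points, WDR74 within 1.27, the N-terminal methyltransferase NTMT1 within 1.353 and the nuclear pore protein NUP133 within 1.496. The strongest peaks lay within 4 bp of each other in SF3A3 and 9 bp in NUP133, against 25 bp in GET3. In CHD4, WDR74 and NTMT1 they were 14478, 753 and 7052 bp apart, so the likeness of their percentiles does not refer to 1 site. With 3 lists, likeness to GET3 is a description only.

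A further 55 genes of ER targeting and insertion were counted in the same way. The list covers the pathway's groups and was written with earlier results of these lists known. A summit in all 3 lists was present in 30 of them, or 54.5%, beside the 38.5% of all protein-coding genes. A segment covered by all 3 lists was present in 6, or 10.9%, beside 10.8% of all protein-coding genes. All 6 also had one from peaks of at most 1000 bp, beside 5.97%. With at least 10 reads in each list the number with a summit was 8, or 14.5%, beside 7.45%. These shares were not tested and not matched for length, and the spans run from 854 bp in EMC6 to 123376 bp in STX18. Nothing is therefore read from them about the pathway. The signal recognition particle and its receptor, which bring ribosomes to SEC61, had a summit in all lists in 5 of 8 genes and no shared segment. Within each group the genes with a summit in all lists were ranked by the mean percentile of the fold of their strongest peaks, which need not lie at 1 site. SRP19 ranked highest in this one, with folds of 4.35, 3.72 and 2.78 and 7, 5 and 18 reads at summits spread over 32390 bp.

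The proteins that work beside SEC61 had a summit in all lists in 6 of 9 genes, of which SSR2, a subunit of the translocon-associated complex, had the only shared segment. Its strongest peaks, each at another position, had folds of 2.24, 3.42 and 2.68. The ER membrane complex, an insertase for other tail-anchored proteins, had 5 of 10 genes with a summit in all lists. Its subunit genes EMC8 and EMC9 had 1 and 2 shared segments. EMC9 spans only 2627 bp and had 16, 11 and 12 reads with folds of 5.26, 3.24 and 2.99 at summits within 43 bp. EMC3 had the highest mean percentile of that group, with folds of 3.94, 4.85 and 3.12, although EMC9 and EMC10 had higher folds in replicate 1, and it had no shared segment.

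Quality control of tail-anchored proteins gave the gene with the highest mean percentile of the 55, RNF126, the ubiquitin ligase that works with BAG6. It had 6, 11 and 1 summits, folds of 7.08, 5.35 and 3.38 at its strongest peaks with 13, 14 and 12 reads, and 1 shared segment. The 3 summits were spread over 4730 bp, so they do not describe 1 site. Of that group 5 of 6 genes had a summit in all lists. Among 10 genes of tail-anchored proteins 7 did, and VAPB and PTPN1 had 1 shared segment each. PTPN1, an ER-anchored phosphatase, had folds of 5.38, 3.87 and 2.88 with 8, 3 and 8 reads at summits 71151 bp apart at most. The multipass translocon had 2 of 6, NCLN and NOMO1. NCLN had the higher mean percentile, with folds of 4.55, 3.68 and 2.92, and NOMO1 had the higher fold in replicates 2 and 3, at 4.204 and 3.44. The summits of NCLN were spread over 18630 bp. Near-identical copies of NOMO1 make its values uncertain. The 5 signal peptidase genes had no summit in replicate 1, and TMEM208 had summits in replicate 3 alone.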

How the data were processed

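The peak lists of 3 SNRPD2 overexpression samples were used, 1 per sample; the 3 control samples are not analysed here. Groups and replicate numbers follow the labels. The tools named per the submitters' processing notes are MACS2 2.2.9.1, STAR 2.7.10b and cutadapt 4.2, and the build is GRCh38. The sources used here do not give the library that served as background, the caller's options, the handling of duplicates or the strand. If duplicates were removed, the recovered reads count distinct read positions and not all reads, which was not tested. The deposited columns are a score (the whole part of 10 times the −log10 p), a fold ratio, an unadjusted −log10 p-value, a −log10 q-value, and other columns with start, end and summit offset.

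Reads at a summit were recovered as the whole number that returns the deposited −log10 p to within 0.002, with the height of 1 read found per list. This solved every peak used, while heights 10% lower or higher solved at most 18.7% of the distinct pairs of fold and p. The step was also run on data simulated with the same formula and heights, which checks the code and cannot show whether the formula is right. More than 1 solution was possible for 39, 24 and 116 distinct pairs in replicates 1, 2 and 3. This was so for 0 of the 89 peaks in the 10 genes. Depth is otherwise unknown. Genes and start windows came from RefSeq tables of GRCh38.p14, and all 10 symbols matched. A shared segment is a stretch of 20 bp or more under a peak of every list, assigned to a gene by their midpoint. The value of a gene is its peak with the highest −log10 p. The members and lists were chosen with earlier results of these data known, and the named genes are the 10, the 5 closest to GET3, and those of the pathway list with a shared segment or the highest mean percentile in their group. No tests were made. Alternatives were a −log10 q of at least 1.3 or 3, at most 1000 bp, at least 10 reads, any overlap, segments of at least 1 or 40 bp, leaving out each replicate and, for GET3, the peak with the highest fold. Python 3.11.15, pandas 2.3.3 and scipy 1.17.1 were used.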

Additional observations from a re-analysis of the deposited data

How the results depend on the processing

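The 5 genes with a summit in every list became 2 with a −log10 q of at least 1.3 or of at least 3, and stayed within 1.5 times of 5 with peaks of at most 1000 bp, with at least 10 reads and with any overlap. Leaving out each replicate gave 5 to 7 genes. The 10 shared segments became 1 with either q-value limit, and 14 to 25 when each replicate was left out. The 25 came without replicate 1, and the cause was not tested. The 28, 41 and 20 peaks became 4, 5 and 2 with the q-value limit of 1.3, and 18 and 20 in replicates 1 and 2 with at least 10 reads. In GET3 the peak with the highest fold was also the one with the highest −log10 p in each list. The limit of 1000 bp could not change it, since all GET3 peaks are narrower. The 30 pathway genes were 26 with peaks of at most 1000 bp and 30 to 40 with a replicate left out. No paired analysis was possible because only overexpression samples had values here, so replicate numbers had nothing to pair with. Of the 16 peaks of GET1, 14 had 1 to 3 reads; sequencing depth is unknown.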
